A study of Mus musculus with 4 samples.

Results

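The 10 genes described here encode transcription factors that set the differentiation state of T cells, namely TCF7, LEF1, BACH2, ID2, ID3, PRDM1, EOMES, ZEB2, ZNF683 and MAF. They were chosen by name from 33538 human genes and were read in T cells, defined as cell barcodes with over 50% of their unique molecular identifiers (UMIs, each a counted transcript molecule) on human genes and at least 1 UMI of CD3D, CD3E or CD3G. The rule took 14109 of 22830 barcodes, or of 18106 human barcodes, and 13555 of these passed the quality filters. The kept T cells numbered 4617 for naïve blood, 3921 for sham blood and 4939 for SCI blood, but only 78 for SCI cord, so that cord values rest on few cells throughout.

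The cells came from huNSG-SGM3 mice, immunodeficient hosts (NOD.Cg-Prkdcscid, IL2rgtm1Wjl with the transgene Tg(CMV-IL3,CSF2,KITLG)1Eav/MloySzJ, labelled 15 weeks of age) that lack lymphocytes of their own, carry human IL3, CSF2 and KITLG transgenes driven by the CMV promoter, and were engrafted after irradiation with human CD34+ haematopoietic stem cells from umbilical cord blood. Sorted human CD45+ cells were profiled by droplet 3' scRNAseq. Naïve hosts (male) had no surgery, sham hosts (male) had a T9 laminectomy, and SCI hosts (male and female, pooled) had a contusion at T9, with the operated groups taken at 7 dpi. Blood was taken from each group and spinal cord from the SCI hosts, with 1 library per group from cells of pooled animals. There were therefore no replicates, no comparison between libraries was tested, and all intervals are at 95% and cover counting error only. Host sex cannot be told apart from SCI in blood, nor tissue digestion and sorting of the cord from the tissue itself.

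TCF7 (the TCF-1 protein) and LEF1 are partner DNA-binding factors of the Wnt pathway that keep naive and memory T cells able to self-renew, and BACH2 is a repressor that holds back effector genes. ID2 and ID3 cannot bind DNA and act by trapping E proteins, with ID3 tied to naive and memory states and ID2 to effector cells. PRDM1 (Blimp-1), EOMES, ZEB2 and ZNF683 (Hobit) drive or mark effector, cytotoxic and tissue-resident states, while MAF (c-Maf) is used by follicular helper and regulatory CD4+ T cells and by cells that make IL-10. As T cells move from naive to effector, the first group is classically lost as the second is gained, and PRDM1 and BACH2 are known antagonists.

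Defining T cell markers were present in blood and cord. TRAC had a UMI in 93.2% to 96.3% of the T cells of each library, and all 9 T cell markers were above 0 in each. The least strict edge of the rule, a single CD3 UMI, held 139, 57 and 114 cells in naïve, sham and SCI blood and 6 in the cord. Clustering without the 10 genes placed 213, 72, 124 and 7 of the T cells (4.61%, 1.84%, 2.51% and 8.97%) in clusters led by B, plasma or myeloid markers. For the 10 genes, several results that turn on these cells are given with and without them, while levels given for subsets of T cells include them. Median depth was 3614, 5153, 4637 and 8149.5 UMIs per cell. Barcodes shared between libraries numbered at most 7 between any pair of blood libraries and 0 with the cord.

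Levels are given as CPM, the UMIs of a gene per 1000000 UMIs on human genes without ribosomal and mitochondrial genes, summed over cells. To place the 10 genes on the naive-to-effector gradient, T cells were divided into 10 mutually exclusive gates by other genes, assigned in this order. These were cycling cells (MKI67 or TOP2A), FOXP3 cells, cytotoxic cells (at least 2 UMIs over GZMB, GZMH, GNLY, FGFBP2 and PRF1), CD8 cells with GZMK, CD8 cells with CCR7 (the homing receptor of naive and central memory cells), other CD8 cells, CD4 or CD40LG cells with PDCD1, CD4 cells with CCR7, other CD4 cells, and cells that no gate took. Summed levels of 12 effector genes ran from 6130 to 8560 CPM in the cytotoxic gate of the blood libraries, against 908 to 1740 CPM in the CD8 CCR7 gate and 204 to 311 CPM in the CD4 CCR7 gate. The CD8 CCR7 gate thus lay between the CD4 CCR7 and cytotoxic gates on this measure in each blood library. It was not the naive end on every measure. The other CD8 gate held 1700, 861 and 2160 CPM of the effector genes in naïve, sham and SCI blood, against 1740, 908 and 1470 CPM. Summed levels of 8 naive genes (NOG, LRRN3, MAL, ACTN1, AIF1, PECAM1, RGS10 and FHIT) were highest in GZMK CD8 cells, at 1540, 1650 and 1700 CPM. CD8 CCR7 cells held 1240, 1190 and 1530 CPM of these.

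TCF7 was highest, and level, in 3 gates of the blood libraries. It stood at 771, 852 and 761 CPM in GZMK CD8 cells of naïve, sham and SCI blood, at 785, 826 and 817 CPM in CD8 CCR7 cells, and at 764, 804 and 770 CPM in PDCD1 CD4 cells. These ranges overlap. CD4 CCR7 cells lay below all 3 gates in naïve and sham blood, at 669 and 662 CPM, but at 783 CPM stood within their range in SCI blood. Cytotoxic cells (331 to 396 CPM) and cycling cells (305 to 385 CPM) held less, and FOXP3 cells least, at 159, 150 and 160 CPM, below every other gate in every blood library. After thinning each cell to 1000 UMIs, 29.1%, 29.8% and 31.7% of T cells had a TCF7 UMI, against 1.28%, 0.749% and 0.954% of B cells, which should lack it. Without thinning the shares were 62.4%, 70.2% and 75.3% of T cells and 4.93%, 8.99% and 8.10% of B cells, whose median depths were 3619, 5665 and 4890 UMIs. LEF1 (17.9% to 21.4% of thinned T cells against 0.187% to 0.477% of B cells), ID2 (10.8% to 12% against 0.238% to 0.425%) and MAF (4.90% to 9.03% against at most 0.187%) were likewise far above what B cells hold. Myeloid cells held more ID2 than T cells, with a UMI in 22%, 26% and 43.2% of thinned cells of naïve, sham and SCI blood.

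LEF1 shared the 2 leading CD8 gates with TCF7 but not its level in PDCD1 CD4 cells. GZMK CD8 cells held 538, 606 and 544 CPM and CD8 CCR7 cells 410, 459 and 579 CPM, and the PDCD1 CD4 gate only 253, 253 and 261 CPM, which overlapped the FOXP3 gate (206 to 264 CPM). Cytotoxic cells were last by median, at 180, 224 and 179 CPM.

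BACH2 was placed mainly in the same pair of CD8 gates. GZMK CD8 cells held 97.2, 99.1 and 103 CPM, with overlapping Poisson intervals between blood libraries, whereas CD8 CCR7 cells held 61.5, 50 and 112 CPM, with SCI blood apart from the others. The other 8 gates held at most 50.5 CPM, and FOXP3, PDCD1 CD4 and cycling cells no more than 16.0 CPM. B cells themselves held 63.6, 79.6 and 85.8 CPM of BACH2, a gene they use, and B, plasma or myeloid clusters contributed 15.2%, 4.08% and 6.40% of the BACH2 UMIs counted in T cells of naïve, sham and SCI blood.

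**Figure D1:**
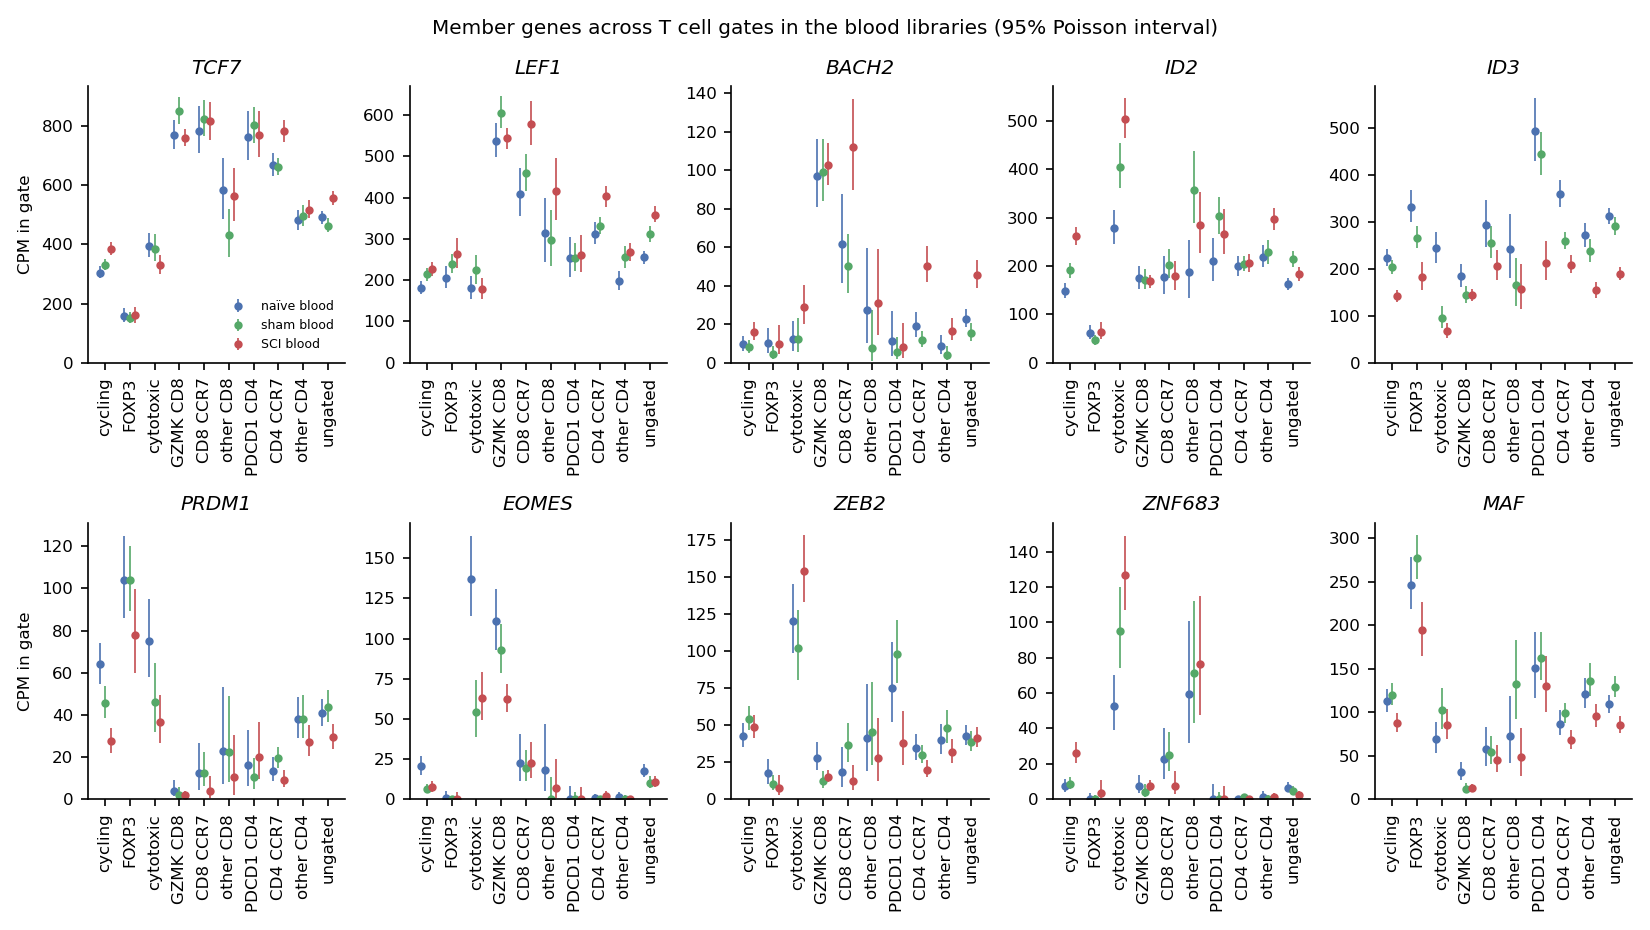
Level of each gene (CPM, linear axis from 0, 1 panel per gene) in the 10 T cell gates of naïve (blue), sham (green) and SCI (red) blood, with 95% Poisson intervals. LEF1 and BACH2 peak in GZMK CD8 and CD8 CCR7 cells, TCF7 in these and PDCD1 CD4 cells, ZEB2 in cytotoxic cells, ID2 and ZNF683 in cytotoxic and other CD8 cells, and PRDM1 and MAF in FOXP3 cells, while EOMES is shared by the cytotoxic and GZMK CD8 gates.

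In cytotoxic cells ID2 was highest by median and ID3 lowest by median among the gates. ID2 stood there at 279, 405 and 505 CPM, followed by the few other CD8 cells (187, 357 and 284 CPM). It was lowest in FOXP3 cells at 62.3, 46.8 and 64.4 CPM, where ID3 stood at 332, 266 and 182 CPM. The ranges of ID2 in the cytotoxic and CD8 CCR7 gates (178 to 203 CPM in the latter) did not overlap. ID3 led by median in PDCD1 CD4 cells, at 493 and 443 CPM in naïve and sham blood but 213 CPM in SCI blood, and was lowest by median in cytotoxic cells, at 244, 95.2 and 67.3 CPM. The naïve library stands apart in that last gate.

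PRDM1 and MAF were both highest in FOXP3 cells and lowest in GZMK CD8 cells. PRDM1 stood at 104, 104 and 78.0 CPM in the FOXP3 gate, above every other gate in each blood library, and at 3.98, 1.91 and 1.76 CPM in GZMK CD8 cells, with the cytotoxic gate at 74.8, 46.2 and 36.6 CPM. MAF stood at 246, 277 and 194 CPM in FOXP3 cells and 151, 162 and 130 CPM in PDCD1 CD4 cells, and at only 31.1, 11.4 and 13.2 CPM in GZMK CD8 cells. GZMK CD8 cells, which were among the leading gates for TCF7, LEF1 and BACH2, therefore held least PRDM1 and MAF in all 3 blood libraries. Plasma cells depend on PRDM1, and T cells of naïve blood held 1210 CPM of 4 plasma markers against 27.1 and 46.9 CPM in sham and SCI blood. In naïve blood 18.6% of PRDM1 UMIs lay in T cells placed in B, plasma or myeloid clusters, and its level without them was 39.1 CPM in place of 43.1 CPM.

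EOMES, a T-box factor of cytotoxic and memory CD8+ cells, was shared between the GZMK CD8 and cytotoxic gates. GZMK CD8 cells held 111, 92.8 and 62.6 CPM and cytotoxic cells 137, 54.4 and 63.0 CPM, ranges that overlap, and CD8 CCR7 cells held 22.5, 19.3 and 22.4 CPM. Cycling and ungated cells held 6.22 to 20.4 CPM, while PDCD1 CD4 cells held 0 UMIs in the 3 blood libraries (upper limits 8.42, 4.25 and 7.36 CPM) and CD4 CCR7 cells 1, 0 and 5 UMIs. ZEB2, a zinc-finger repressor of terminal effector cells, stood at 120, 102 and 154 CPM in cytotoxic cells, a range above that of all other gates, and at 27.9, 12.1 and 15.3 CPM in GZMK CD8 cells. PDCD1 CD4 cells followed cytotoxic cells by median, at 75.3, 97.9 and 37.9 CPM. In sham blood the intervals of these gates overlapped (80.2 to 128 CPM in cytotoxic and 78.2 to 121 CPM in PDCD1 CD4 cells). The GZMK CD8 and cytotoxic gates thus overlapped in EOMES but not in ZEB2.

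ZNF683, which marks resident and some circulating effector cells, reached 52.8, 95.2 and 127 CPM in the cytotoxic gate. The other CD8 gate followed by median, with 59.3, 71.4 and 76.2 CPM on 79, 63 and 90 cells, and the ranges overlap. All remaining gates held at most 26.1 CPM, reached by cycling cells of SCI blood, and no ZNF683 UMI was seen in PDCD1 CD4 cells or in B or myeloid cells of any library. ZEB2 is the gene most open to cells of other types, since B cells held 350, 445 and 394 CPM and clusters of B, plasma or myeloid markers gave 36.4%, 37.6% and 29.6% of the ZEB2 UMIs counted in blood T cells. Without those cells ZEB2 was 1.75 log2 units or more higher in cytotoxic than in CD8 CCR7 cells in each blood library.

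The cytotoxic and CD8 CCR7 gates were then set against each other, with the log2 ratio of cytotoxic over CD8 CCR7 cells. A gene counted as past the mark when its ratio was beyond 1.5-fold either way, with at least 20 UMIs over both groups. In naïve blood 8 of the 10 genes were past it, against 23.5% of all genes tested, with PRDM1, EOMES, ZEB2, ZNF683 and ID2 higher in cytotoxic cells and TCF7, LEF1 and BACH2 lower. In sham blood all 10 were past it (background 21.2%), and in SCI blood all 10 (background 26.1%), with 6 higher and 4 lower in each. The directions were those of the naïve library with ID3 added to the lower side and MAF to the higher. Median log2 ratios of the 10 genes were 0.45, 0.95 and 1.19, where all genes tested had -0.003, -0.02 and -0.05. As the 10 genes go both ways, these medians reflect how many lie on each side and mark no shared shift.

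Among the genes lower in cytotoxic cells, BACH2 differed most, by 4.94-fold in naïve blood (11 against 30 UMIs), 3.91-fold in sham blood (9 against 44) and 3.83-fold in SCI blood (34 against 90). LEF1 was 2.27-, 2.04- and 3.23-fold lower and TCF7 1.98-, 2.13- and 2.46-fold lower. ID3 was 1.20-fold lower in naïve blood, with an interval of the log2 ratio from -0.57 to 0.05, and 2.67- and 3.06-fold lower in sham and SCI blood. On the higher side ZEB2 differed by 6.18-, 2.78- and 11.8-fold and ZNF683 by 2.26-, 3.75- and 15.8-fold, the last on 6 UMIs in the CD8 CCR7 gate. EOMES differed by 5.86-, 2.77- and 2.76-fold and ID2 by 1.56-, 1.99- and 2.81-fold. PRDM1 differed by 5.65-, 3.59- and 8.52-fold, but on 6, 11 and 3 UMIs in the CD8 CCR7 gate, so that its log2 ratio in SCI blood had an interval from 1.65 to 5.63. The cytotoxic gate was not all CD8, with a CD8A or CD8B UMI in 127 of 312, 97 of 178 and 197 of 342 cells. Restricted to those, MAF became -0.53, 0.50 and 0.11 on the log2 scale and was not past 1.5-fold in any library, while the other 9 genes kept their direction in all 3 libraries.

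A finer division came from 12 effector genes that are neither among the 10 nor used by the gates (NKG7, CST7, CCL5, CCL4, KLRG1, KLRD1, CTSW, S1PR5, CX3CR1, FCGR3A, ADGRG1 and EFHD2). T cells were binned by their effector UMIs per 1000 UMIs, as 0, 1 to 2, 3 to 5 and 6 or more. The bins order cells by effector genes alone, and cells with 0 were not the naive end by the naive genes. Summed levels of the naive genes were 754, 834 and 1030 CPM in cells with 0 of naïve, sham and SCI blood. They were 962, 1070 and 1120 CPM in the bin of 3 to 5 and 884, 723 and 790 CPM in the top bin. ID2, EOMES and ZNF683 were higher at every step in all 3 blood libraries, though not every step exceeded its counting error (EOMES stood at 82.6 and 83.9 CPM in the top bins of sham blood). EOMES went from 5.51, 5.13 and 8.59 CPM in cells with 0 to 192, 83.9 and 88.0 CPM in the top bin, and ZNF683 from 3.21, 1.84 and 1.74 CPM to 54.2, 106 and 148 CPM. ZEB2 was 3.34-, 3.66- and 6.31-fold higher in the top bin than in cells with 0. ID3 was lower at every step, from 308, 266 and 185 CPM to 146, 53.2 and 74.5 CPM. MAF was 5.02-, 2.59- and 1.70-fold lower in the top bin than in cells with 0. In sham and SCI blood this is opposite to its direction between the cytotoxic and CD8 CCR7 gates.

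TCF7, LEF1 and BACH2 were highest in a middle bin of the axis in each blood library. TCF7 stood at 486, 511, 556 and 435 CPM over the 4 bins of naïve blood, at 512, 537, 554 and 315 CPM in sham blood, and at 580, 615, 572 and 355 CPM in SCI blood, with the lowest value in the top bin each time. LEF1 had a like shape, with 301, 390 and 371 CPM in the bin of 3 to 5 and 189, 186 and 204 CPM in the top bin. BACH2 was highest in the bin of 3 to 5 in each library, at 48.8, 32.4 and 69.3 CPM, and its top bin could not be told from its bottom bin (the interval of the log2 ratio held 0 in all 3). PRDM1 ran the other way, lowest in the bin of 3 to 5 at 18.1, 14.6 and 12.5 CPM and highest in the top bin at 72.3, 53.2 and 42.5 CPM. The bin of 3 to 5 held 233, 144 and 352 cells, with 317, 217 and 471 cells at 2 or 3 effector UMIs, on either side of its lower cut, and 120, 58 and 137 cells at 5 or 6, on either side of its upper cut.

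**Figure D2:**
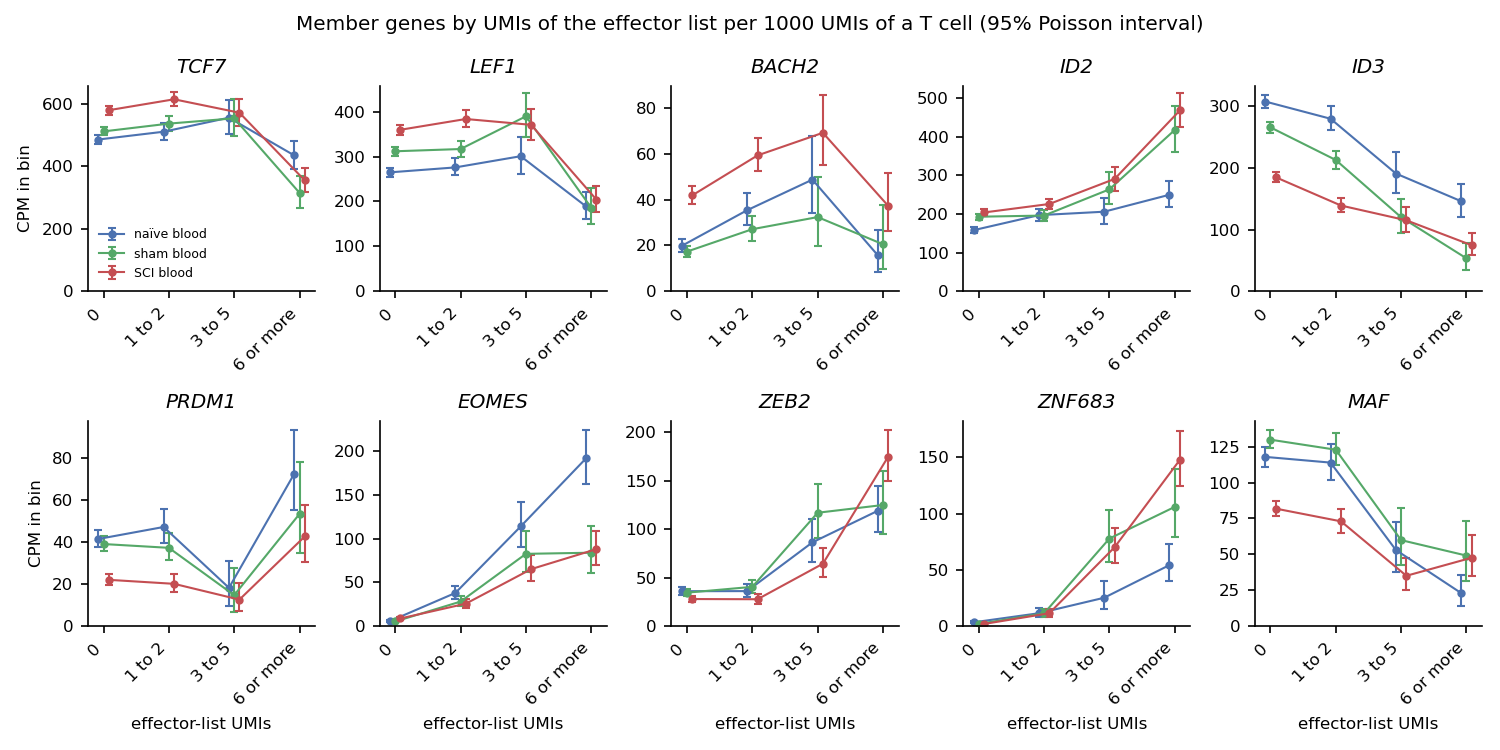
Level of each gene (CPM, linear axis from 0) in T cells binned by UMIs of the 12 effector genes per 1000 UMIs, for naïve (blue), sham (green) and SCI (red) blood, with 95% Poisson intervals. ID2, EOMES, ZEB2 and ZNF683 are highest in the top bin, ID3 declines throughout, and TCF7, LEF1 and BACH2 are at their lowest or near it in the top bin after a maximum in a middle bin.

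Whether genes were found in the same cells was asked for all 45 pairs, in T cells thinned to 1000 UMIs and placed in T cell clusters, as the number of cells with both over the number that their separate shares give. TCF7 and PRDM1 were found together in 13, 11 and 10 cells of naïve, sham and SCI blood where 41.4, 37.4 and 24.8 would follow from their shares, or 0.314, 0.294 and 0.404 of it. TCF7 and MAF were at 0.751, 0.646 and 0.742, and these are the 2 pairs whose interval lay below 1 in all 3 libraries. Above 1 in all 3 were TCF7 with LEF1, at 1.18, 1.15 and 1.13, and ID2 with ZNF683, at 2.40, 3.11 and 2.66 on 10, 7 and 16 cells. PRDM1 and MAF were at 2.08, 1.42 and 3.40, with intervals above 1 in naïve and SCI blood. BACH2 and PRDM1 were never found in the same cell, but only 2.56, 1.68 and 2.38 such cells would follow from their shares, so that exclusion was not detectable at this depth.

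**Figure D3:**
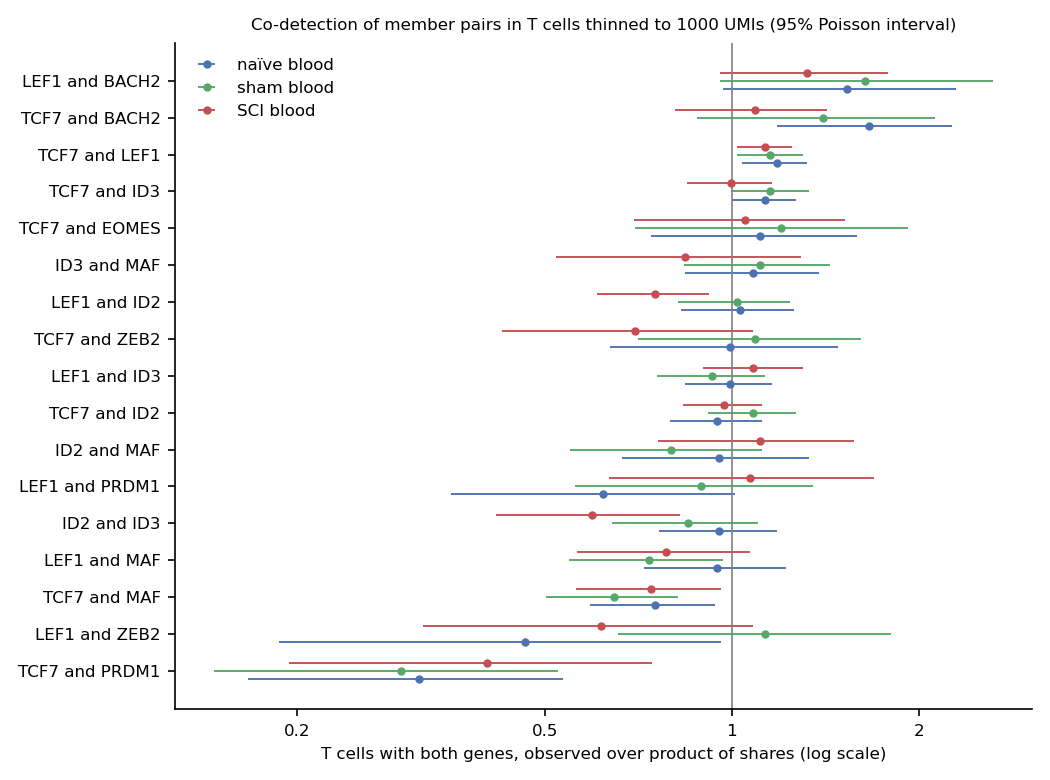
Number of T cells with a UMI of both genes over the number given by the product of their shares (log axis, 1 marks no relation) for the 17 pairs with at least 10 cells given by the shares in each blood library, with 95% Poisson intervals. TCF7 with PRDM1 lies lowest, at 0.294 to 0.404, and TCF7 with LEF1 above 1 at 1.13 to 1.18.

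Over 30 points, the 10 gates in each of the 3 blood libraries (all with at least 50 cells), gene levels were correlated on the log2 scale as a description, since the points share libraries and depth. PRDM1 and MAF varied together (r = 0.84), as did LEF1 and BACH2 (r = 0.81), ID2 and ZEB2 (r = 0.74) and EOMES and ZNF683 (r = 0.705). LEF1 and PRDM1 (r = -0.86), BACH2 and MAF (r = -0.85) and TCF7 and PRDM1 (r = -0.81) varied in opposite ways. Of 8470 genes compared, the patterns most like EOMES were CRTAM (r = 0.91), CTSW (0.90) and CCL5 (0.896), and those most like ZNF683 were TRGC2 (0.87), CCL5 (0.86) and KLRD1 (0.83). TXK (0.92), PLAC8 (0.91) and PITPNC1 (0.91) were most like BACH2, ARMH1 (0.96), AC013264.1 (0.95) and DENND5A (0.92) most like TCF7, and ABLIM1 (0.92), DOCK10 (0.92) and MYC (0.90) most like LEF1. PRDM1 was nearest to MIR4435-2HG (0.95), PERP (0.94) and CYTOR (0.92), and MAF to FAM129A (0.95), TNFRSF4 (0.94) and TNFRSF18 (0.93). ID2 was followed by CD300A (0.87), LINC01871 (0.84) and CCND3 (0.79) and ZEB2 by ANKRD28 (0.83), PRR5L (0.82) and CD99 (0.80). ID3 had the weakest matches, NAGK (0.74), EID3 (0.72) and PHC1 (0.71).

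Between blood libraries, BACH2 and ZNF683 were higher in SCI blood than in both others, and ID3, PRDM1 and MAF lower. BACH2 stood at 24.2 CPM in naïve, 20.0 CPM in sham and 47.7 CPM in SCI blood, the SCI library apart from the other two. ID3 went the other way, with 287, 243 and 163 CPM, and so did PRDM1, with 43.1, 38.1 and 21.9 CPM. MAF was at 108, 124 and 74.8 CPM, again with SCI lowest. ZNF683 was at 8.86 and 9.50 CPM in naïve and sham blood and at 16.4 CPM in SCI blood.

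In the other 5 genes SCI blood did not stand apart from both others by as much. EOMES was at 28.1, 14.9 and 20.7 CPM, with the sham library lowest. TCF7 was at 491, 513 and 576 CPM, LEF1 at 265, 312 and 358 CPM and ID2 at 174, 202 and 229 CPM, each highest in SCI blood on the CPM scale. Poisson intervals did not overlap between the libraries for LEF1 and ID2, and for TCF7 only those of naïve and sham blood did (480 to 503 and 502 to 524 CPM). ZEB2 was at 43.2, 41.2 and 38.0 CPM, with overlapping intervals. Without T cells in B, plasma or myeloid clusters ZEB2 was at 30.6, 26.6 and 27.7 CPM. Its log2 ratio of SCI against sham blood then turned from -0.11 to 0.06.

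**Figure D4:**
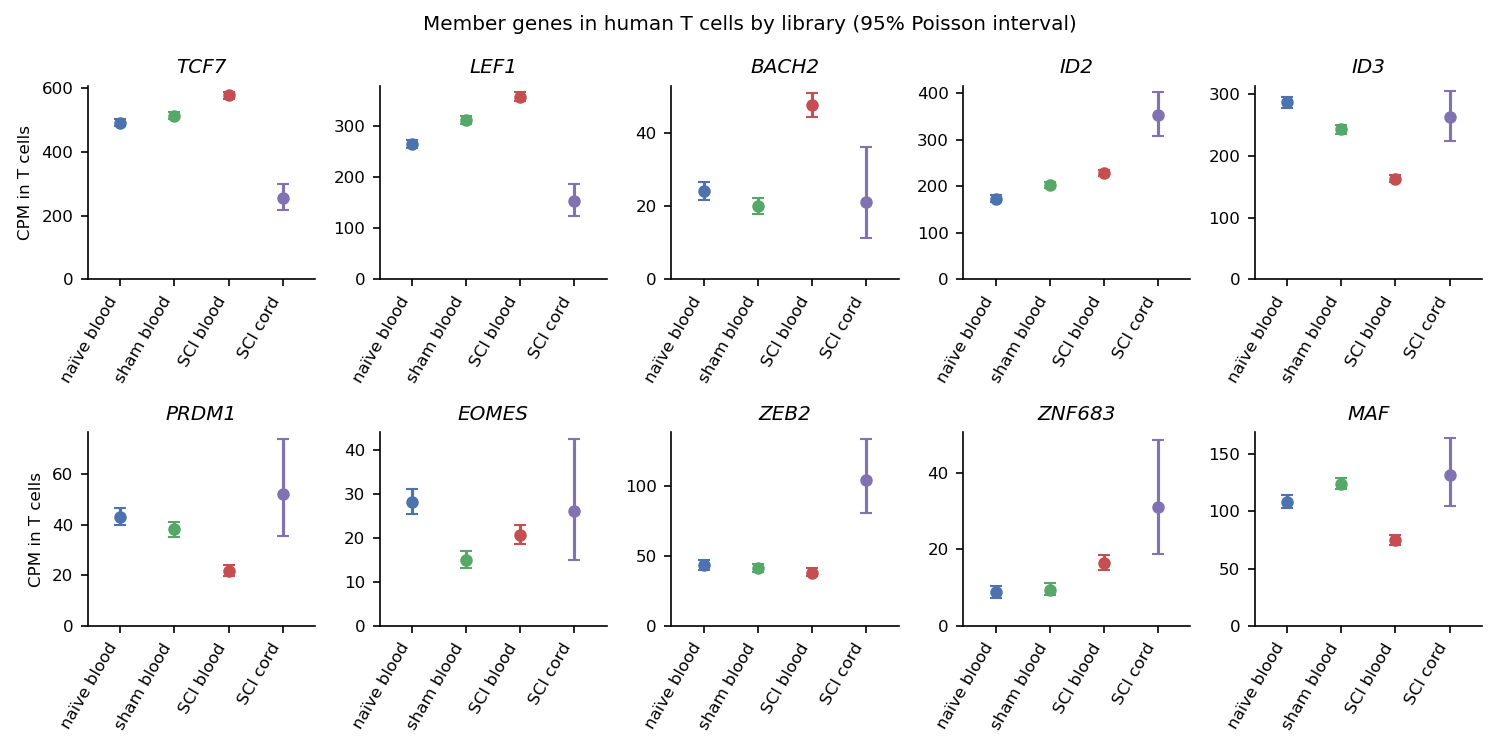
Level of each gene (CPM, linear axis from 0) in all human T cells of each library, with 95% Poisson intervals from counting alone. SCI blood stands apart for BACH2, ID3, PRDM1, ZNF683 and MAF, and SCI cord has the lowest TCF7 and LEF1 and the highest ID2 and ZEB2.

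In sham against naïve blood 1 of the 10 genes was past 1.5-fold, EOMES, 1.88-fold lower (log2 ratio -0.91, interval -1.15 to -0.68), where 9.92% of all genes tested were. In SCI against naïve blood 4 were past it (background 13.5%), with BACH2 1.97-fold higher (log2 0.98, interval 0.80 to 1.16), ZNF683 1.85-fold higher (0.59 to 1.20), PRDM1 1.96-fold lower (-1.16 to -0.79) and ID3 1.76-fold lower (-0.88 to -0.74). In SCI against sham blood 4 were past it (background 12.3%), with BACH2 2.38-fold and ZNF683 1.73-fold higher and PRDM1 1.74-fold and MAF 1.65-fold lower. These comparisons share libraries and are not independent of each other. In bulk sums of this kind, fewer cells of a type and less RNA per cell cannot be told apart without the gates. With UMIs per cell in place of CPM, TCF7, LEF1 and ID2 turned from higher to lower in SCI against sham blood (-0.10, -0.06 and -0.08), so their order between these libraries depends on the scale. In sham against naïve blood the same scale turned BACH2, ID3, PRDM1 and ZEB2 from lower to higher (0.21, 0.25, 0.31 and 0.42). At a 2-fold mark 0 of the 10 genes were past it in either comparison with naïve blood, where 3.72% (sham) and 5.08% (SCI) of all genes tested were, and 1 (BACH2) in the comparison of SCI with sham blood, where 4.88% were.

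**Figure D5:**
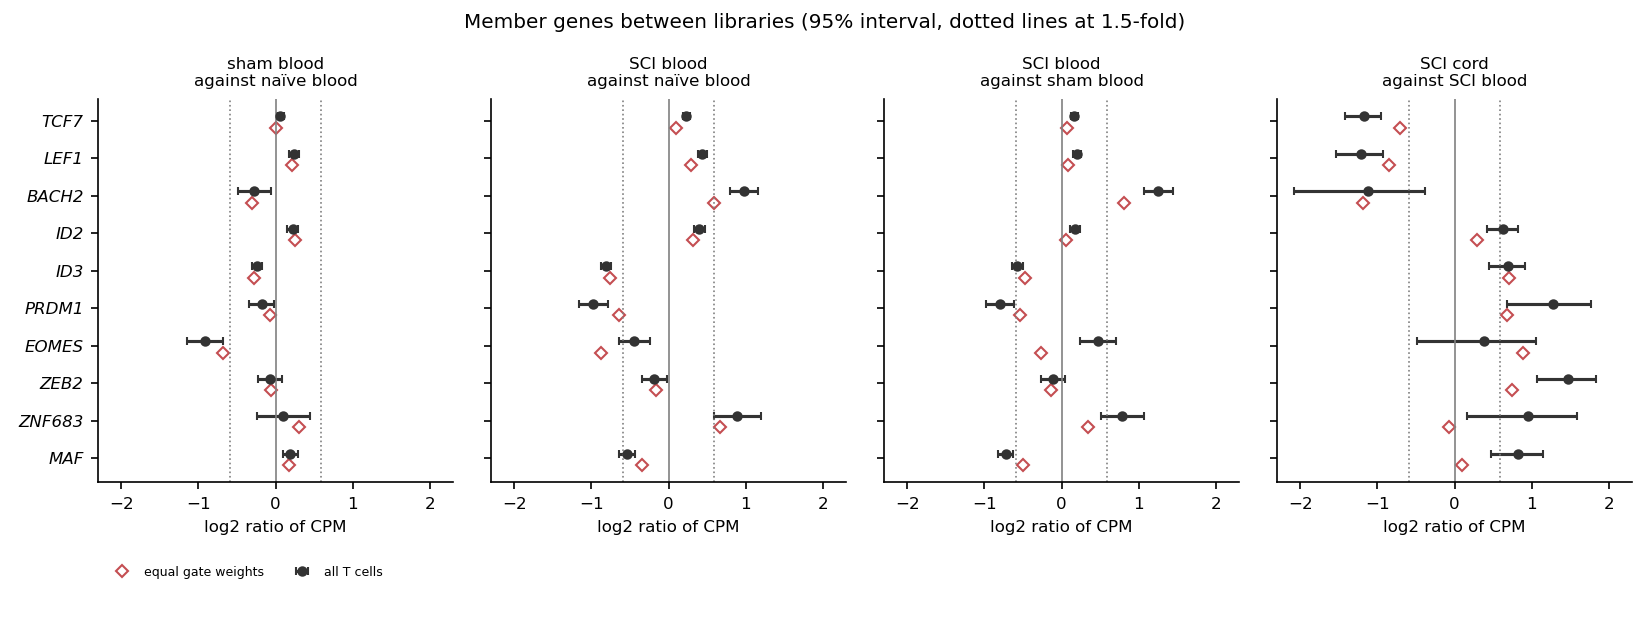
Log2 ratio of CPM of each gene in 4 comparisons of libraries (horizontal axis), over all T cells with 95% intervals (filled circles) and with each T cell gate given the same weight in both libraries (open diamonds), with dotted lines at 1.5-fold. BACH2 stays higher in SCI blood under equal weights, at 0.59 and 0.81, whereas ZNF683 and MAF in the cord move to near 0. In the cord comparison only the 4 gates with at least 10 cells in both libraries enter the equal weights.

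The make-up of the blood T cells differed between libraries in the gates that hold these genes. GZMK CD8 cells were 10.5%, 11.7% and 22.8% of T cells in naïve, sham and SCI blood, and FOXP3 cells 8.25%, 11.8% and 4.70%. With every gate given the same weight in both libraries, BACH2 was still higher in SCI blood, by 0.59 against naïve and 0.81 against sham on the log2 scale, where all T cells gave 0.98 and 1.25. Within gates it was higher in 7 of 7 gates with enough counts in each comparison, with 18.9 and 11.9 CPM in CD4 CCR7 cells of naïve and sham blood and 50.5 CPM in those of SCI blood, for example, but near equal in GZMK CD8 cells (97.2, 99.1 and 103 CPM).

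ID3 was lower in SCI than in naïve blood in 10 of 10 gates, with an equal-weight log2 ratio of -0.76 against -0.81 over all T cells. It was also lower in sham than in naïve blood in 10 of 10 gates on the CPM scale, though not in UMIs per cell over all T cells (0.25). B cells, which use the gene too, stood at 207, 113 and 135 CPM, with sham lowest. PRDM1 was lower in 6 of 6 gates against both libraries, and its equal-weight ratios were -0.645 and -0.54, the second no longer past 1.5-fold. MAF came to -0.34 and -0.50, neither past 1.5-fold, while lower in 9 of 10 gates each time. ZNF683 came to 0.66 and 0.35, where all T cells gave 0.89 and 0.79, the second no longer past 1.5-fold. It was higher in 3 of 5 gates against naïve blood and in 4 of 6 against sham blood. EOMES moved the other way against naïve blood, from -0.44 to -0.87, and was lower in 5 of 5 gates, and against sham blood it turned from 0.47 to -0.27, with 4 of 5 gates higher and GZMK CD8 cells lower (-0.57). At equal weights 5 genes were past 1.5-fold in SCI against naïve blood, where 12.5% of all genes tested were, and 1 (BACH2) in SCI against sham blood, where 10.9% were.

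In the cord, TCF7 and LEF1 were lower and 6 of the other genes higher than in SCI blood. TCF7 stood at 254 CPM (156 UMIs) against 576 CPM, 2.26-fold lower (log2 -1.17, interval -1.42 to -0.95), LEF1 at 153 CPM (94 UMIs) against 358 CPM, 2.33-fold lower, and BACH2 at 21.2 CPM (13 UMIs) against 47.7 CPM, 2.17-fold lower (-2.09 to -0.39). ZEB2 was 2.76-fold higher (104 CPM), PRDM1 2.42-fold (52.2 CPM), ZNF683 1.93-fold (31.0 CPM, 19 UMIs in 8 cells, 8 of them in 1 cell), MAF 1.78-fold (132 CPM), ID3 1.61-fold (263 CPM) and ID2 1.55-fold (354 CPM). EOMES did not pass the mark, at 26.1 CPM (interval of the log2 ratio -0.49 to 1.05). Thus 9 of 10 were past 1.5-fold, where 38.2% of all genes tested were in this comparison with a small library, and 5 of 10 past 2-fold, where 20.1% were. Cord cells were also deeper, and with UMIs per cell in place of CPM the lower values of TCF7, LEF1 and BACH2 came to -0.07, -0.11 and -0.01.

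Myeloid markers and genes of the dissociation response were higher in the cord, and B and plasma markers lower. Its T cells held 3790 CPM of 8 myeloid markers against 198 CPM in SCI blood and 747 and 942 CPM in naïve and sham blood, with all 8 detected. A list of NK markers stood at 696 CPM against 51.7 to 81.9 CPM in blood, with NCAM1 and KLRF1 at 0. It includes TYROBP and FCER1G, by which myeloid cells were also recognised here, so its level does not separate NK from myeloid cells. B markers stood at 104 CPM against 197 to 361 CPM, with MS4A1, TCL1A and VPREB3 at 0. Plasma markers stood at 13.0 CPM against 27.1 to 1210 CPM, with TNFRSF17, DERL3 and JCHAIN at 0. A list of 9 genes induced by tissue dissociation stood at 3840 CPM against 965 to 1260 CPM. In cord T cells, 7 cells in B, plasma or myeloid clusters held 64.1% of the ZEB2 UMIs, 33.6% of those of ID2 and 25.0% of those of EOMES. Leaving such cells out of both libraries brought ZEB2 from 1.47 to 0.78 and ID2 from 0.63 to 0.35, the latter no longer past 1.5-fold, whereas TCF7 stayed at -0.94, LEF1 at -1.06, BACH2 at -0.86, PRDM1 at 1.33, ZNF683 at 1.25 and MAF at 0.95. Leaving out T cells with any B marker UMI instead moved ZEB2 and ID2 the other way, to 2.38 and 0.93. The part of dissociation in these values was not tested.

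The gates of the cord allowed 4 comparisons with SCI blood, on 10 to 15 cells each. TCF7 and LEF1 were lower in 4 of 4 gates. In cytotoxic cells TCF7 stood at 183 CPM in cord and 331 CPM in SCI blood, and in CD4 CCR7 cells at 496 and 783 CPM. Cytotoxic cells were 19.2% of cord T cells (exact interval 11.2% to 29.7%) and 6.92% of those in SCI blood, and GZMK CD8 cells 7.69% (2.88% to 16.0%) against 22.8%. At equal weights over these 4 gates, which leave out GZMK CD8 cells, TCF7 was still lower at -0.70 and LEF1 at -0.85 on the log2 scale. ID2 came to 0.29, MAF to 0.10 and ZNF683 to -0.08. These gates are a different set of cells, with MAF of SCI blood at 104 CPM over them and 74.8 CPM over all T cells. In cytotoxic cells ZNF683 stood at 131 CPM in cord and 127 CPM in SCI blood. ID3 was higher in 3 of 4 gates, but leaving out T cells with any B marker UMI (43.6% of cord T cells) turned its ratio to -0.39, and 26 of its 161 cord UMIs came from 1 cell.

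Other regulators of the same pathways were read from lists. Of 12 effector regulators, 10 had enough counts between the cytotoxic and CD8 CCR7 gates, and 5, 7 and 8 of them were past 1.5-fold higher in naïve, sham and SCI blood with 0 lower. TBX21, the T-box partner of EOMES, led in each, with log2 ratios of 3.52, 4.09 and 5.45 that rest on 1.24 to 4.10 CPM in the CD8 CCR7 gate (intervals 1.91 to 6.91, 2.43 to 7.49 and 3.51 to 11.34). HOPX came next in sham and SCI blood (3.55 and 3.46). Of 10 naive and quiescence genes not used by the gates, 8 had enough counts and 3, 2 and 4 were lower with 0 higher, led by the chromatin organiser SATB1 (-1.995, -1.53 and -2.13). The next lowest was IL7R in naïve blood (-1.53) and FOXP1 in sham and SCI blood (-0.72 and -1.11). Among 7 TCF and LEF co-factors, the co-repressor TLE4 was lower each time (-0.61, -0.998 and -1.11), joined in naïve and SCI blood by BCL9L (-0.65 and -0.92), with 0 higher. Of the E proteins that ID2 and ID3 bind, TCF3 and TCF12 had enough counts in each library. TCF3 stood at -0.32, -0.87 and -0.61 and TCF12 at -0.66, -0.69 and -0.51, with TCF3 past 1.5-fold in sham and SCI blood and TCF12 in naïve and sham blood. TCF4 had enough counts in SCI blood alone, at 0.91.

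Between blood libraries fewer of these genes were past 1.5-fold. In SCI against naïve blood SATB1 (0.70) and the cytokine receptor gene IL7R (0.68) were higher and MYB (-0.63) lower among 11 naive genes, and HOPX (1.08) and STAT4 (0.60) were higher and IRF4 (-1.67) and NFIL3 (-0.67) lower among 12 effector regulators. The 51 T cells of the cluster led by plasma markers were all from naïve blood, and no list ratio here is given without them. In SCI against sham blood, effector regulators had 3 of 12 higher, furthest HOPX (1.73) and STAT4 (0.65), and 0 lower, and the naive list had 1 of 11 lower, MYB (-1.04). Lineage regulators had 2 of 8 lower, FOXP3 (-1.41) and TOX2 (-0.73), with FOXP3 cells fewer in SCI blood as given above. In SCI cord against SCI blood, 6 of 11 naive genes were lower, furthest KLF3 (-1.91) and SATB1 (-1.61), and 2 were higher, MYB (3.03) and BCL6 (2.07). Of 12 effector regulators 6 were higher there, furthest NFIL3 (2.24) and BHLHE40 (1.64), and 1 lower, KLF6 (-0.72). AP-1, BACH and small MAF genes had 8 of 10 higher with a median log2 ratio of 1.34, led by FOS (3.17) and JUNB (1.99), both also on the dissociation list. ID1, which acts like ID2 and ID3, stood at 34.2 CPM in the cord and 0.555 CPM in SCI blood.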

How the data were processed

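The authors processed the reads with CellRanger 3.1.0 against a reference that joins GRCh38 and mm10. They deposited, for each barcode, the raw UMI count of every human and mouse gene, with no normalisation. Everything else was computed from these counts in Python 3.11.15 with numpy 2.4.6, scipy 1.17.1, pandas 2.3.3 and scanpy 1.11.5.

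The 10 genes, the gates and the lists were chosen with earlier results of these data known. A gene of the planned gates and lists and a planned B cell marker are not reported here and were used in no gate or list, so the CCR7 gates rest on CCR7 alone. Quality filters removed barcodes with few human UMIs or genes (log scale) or a high mitochondrial or ribosomal share, each set at 3 MADs from the library's median, and barcodes marked by Scrublet (0.8% per 1000 barcodes) only where they had over 3000 genes, which left 325, 182 and 268 marked T cells in naïve, sham and SCI blood and 0 in the cord.

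T cell UMIs were summed per library or gate, without ribosomal and mitochondrial genes, giving 14442673, 17161384, 18030421 and 613196 UMIs. Levels carry exact Poisson intervals, shares exact Clopper-Pearson intervals and ratios conditional binomial intervals. Log2 ratios used 0.5 added counts. Each group has 1 library, so no test was run over cells. Clusters, used for alternatives, were Leiden clusters (resolution 0.6, 2000 variable genes, without the 10 genes). Genes named beyond the 10 are the 3 highest correlations for each and, from the lists, those furthest by log2 ratio, up to 2 each way. TMM factors came from edgeR 4.0.16 under R 4.3.3. The ratio calculation was tested on simulated counts. No human sequence was used here. Antisense neighbours of ID2, ZEB2 and MAF held 1, 9 and 30 UMIs in all T cells, against 10332, 2081 and 5119 for the genes.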

Additional observations from a re-analysis of the deposited data

Results flagged for a closer look

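ZEB2 differed between SCI and sham blood in opposite directions by gate, which was not tested. Its log2 ratio was 0.59 in cytotoxic cells and -1.50, -1.34 and -0.59 in the CD8 CCR7, PDCD1 CD4 and other CD4 gates. ZNF683 differed between SCI and naïve blood likewise, at 1.83 and 1.26 in the cycling and cytotoxic gates and -1.33 in ungated cells, and between SCI and sham blood at 1.57 in the cycling gate and -1.66 in the CD8 CCR7 gate, neither of which was tested. These were picked out from all genes, gates and comparisons because their intervals lay on either side of 0.

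UMIs on the mouse rows of the same genes (9 of 10 found by name) were seen in human T cells, data that no comparison above uses. Naïve, sham and SCI blood held 4, 53 and 56 such UMIs, or 0.0188%, 0.203% and 0.201% of the UMIs on the human rows, and the cord held 2. Over all genes mouse UMIs were 1.07%, 1.26% and 1.03% of the UMIs in T cells of naïve, sham and SCI blood and 0.650% in the cord.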

How the results depend on the processing

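Between gates, 392 of 392 values of genes past 1.5-fold kept their direction over the alternatives run, which included clusters in place of gates, other cytotoxic cuts and other cell filters. The cluster put in place of the CD8 CCR7 gate was a different set of cells. At resolution 0.6 it held 654, 618 and 1438 cells of naïve, sham and SCI blood, against 163, 204 and 239 in the gate. EOMES stood at 65.0 CPM in that cluster, against 22.5, 19.3 and 22.4 CPM in the gate. Between libraries 214 of 216 did. The exceptions were in SCI cord against SCI blood, ZNF683 at -0.0766 with equal gate weights and ID3 at -0.39 without T cells with a B marker UMI. Counts past 1.5-fold moved beyond 1.5 times as follows. Sham against naïve blood went from 1 to 3 with UMIs per cell and to 3 with cells thinned to 1000 UMIs, and SCI against sham blood from 4 to 1 with equal gate weights. At a 2-fold mark the counts were 0, 0, 1 and 5 for sham against naïve, SCI against naïve, SCI against sham and SCI cord against SCI blood. Of all genes tested, 3.72%, 5.08%, 4.88% and 20.1% were past it, in the same order. Leaving out T cells in B, plasma or myeloid clusters, and keeping only cytotoxic cells with a CD8 UMI, were chosen after seeing the data. The causes were not tested. No replicate could be left out and no paired analysis was possible because each group has 1 library. Depth limits the cord, with 78 cells and 13 to 217 UMIs per gene, and the low counts within gates.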
